A study of Mus musculus with 46 samples.

Results

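The Polycomb complex genes described here are 10 of the 22380 protein-coding genes of the mouse annotation used (GENCODE vM1, build mm9), and all 10 were found under their own names. They were listed by function: Ezh1, Ezh2, Eed, Suz12, Jarid2 and Mtf2 of Polycomb repressive complex PRC2, and Rnf2, Cbx2, Cbx7 and Kdm2b of PRC1. For each gene, the peaks that overlapped its body or the 1 kb to either side were collected from every ChIP-Seq library, and their scores (tags in the peak per 10 M tags of the library) were added. This sum is called the summed score.

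Polycomb complexes keep developmental genes silent. PRC2 places methyl groups on lysine 27 of histone H3 through its catalytic subunit, Ezh1 or Ezh2, which works only with Eed and Suz12, while Jarid2 and Mtf2 are accessory subunits that guide the complex to chromatin. PRC1 adds ubiquitin to histone H2A through Rnf2 (Ring1b); Cbx2 and Cbx7 are alternative chromodomain subunits that read the PRC2 mark, Cbx7 being the form typical of embryonic stem cells, and Kdm2b brings a variant PRC1 to unmethylated CpG islands. The readouts here are not Polycomb marks: H3.3 is a histone variant deposited outside replication, often over active genes, H3K4me3 marks active promoters and H3K36me3 the bodies of transcribed genes.

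The study followed mouse embryonic fibroblasts (MEFs) from mid-gestation embryos that carried a GFP reporter behind Oct4, infected with retroviruses for Oct4, Sox2, Klf4 and c-Myc (OSKM). H3.3 was profiled in 12 libraries: unsorted cells at day 0 (D0) and day 3 (D3), cells of the successful route (Thy-1- at days 6 and 9, D6T- and D9T-, and SSEA-1+ at days 12 and 16, D12S+ and D16S+), cells of the unsuccessful route (D6T+, D9T+, D12S- and D16S-), the resulting iPSCs, and the ESD3 line of mouse embryonic stem cells (mESCs). A second set of 4 H3.3 libraries came from MEFs converted towards blood progenitors with the SLBR factors (Scl, Lmo2, Bmi1 and Runx1): MEF at day 0, D4 at day 4, and the fully transdifferentiated cKit+ and cKit- cells, in a protocol that used co-culture on OP9 stromal cells. For H3K4me3 and for H3K36me3 there were 7 libraries, covering D0, D3, the 4 sorted fractions of the successful route and iPSCs. Every group held 1 library, so no difference below has a replicate check and no test across conditions was possible. Intervals are exact 95% intervals for the tag counts and cover counting error only.

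Depth ran from 18.7 M tags (D16S+) to 41.2 M (iPSCs) in the 12 reprogramming H3.3 libraries, and the share of tags in peaks from 4.88% (D16S+) to 22.0% (D12S-). In the transdifferentiation set the share in peaks ran from 1.65% (cKit+) to 37.2% (D4), and in H3K36me3 from 1.07% (D12S+) to 42.4% (D9T-). Comparisons are therefore read against all protein-coding genes: a gene is called higher or lower when its summed score differed at least 2-fold, or when only 1 of the 2 libraries had a peak, and the share of all genes called by the same rule stands beside each count. Where calls are made relative to the all-gene median, only the log2 ratio is shifted. A gene with a peak in only 1 library is then still called, so these shares also depend on how many genes have a peak. The labelled cell states were checked on H3.3 over marker genes fixed by name. All 10 fibroblast markers had a peak in D0 (summed score of the list 6050) and 2 of 10 in iPSCs (37.1). Of 10 pluripotency markers, 4 had a peak in D0 (summed score 74.8) and all 10 in iPSCs (7286) and in ESD3 (1648). In cKit+ cells 5 of 10 fibroblast markers and 6 of the 9 hematopoietic markers found had a peak (summed score of the latter 186), and Kit itself had none. Of the same 9 hematopoietic markers, 5 had a peak in MEF (805), 9 in D4 (1985) and 7 in cKit- (361). The hematopoietic list thus did not set cKit+ cells apart from the fibroblasts or from cKit- cells. In bulk ChIP, a smaller share of cells carrying H3.3 at a gene and less H3.3 per cell cannot be told apart.

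Sequences of 4 start sites, chosen after values were seen, are shown for the H3K4me3 patterns described further on and for a core PRC2 gene: an upstream and a downstream start of Cbx7, the first without H3K4me3 in D0 and with it in iPSCs, and the starts of Mtf2 and Suz12. Each runs from 250 bases before to 50 bases after an annotated transcript start, in build mm9, 5′ to 3′ on the strand of the gene. Capitals mark every match, on either strand, to the words TTTCCCGC and TTTGGCGC, found in E2F binding sites, or CCAAT, the word bound by NF-Y. The upstream Cbx7 start (chr15:79801500-79801799, minus strand) is the annotated gene start, and the downstream start (chr15:79762921-79763220, minus strand) lies 38.6 kb into the gene. The Mtf2 window is chr5:108494498-108494797 and the Suz12 window chr11:79806358-79806657, both on the plus strand.
Cbx7 upstream start: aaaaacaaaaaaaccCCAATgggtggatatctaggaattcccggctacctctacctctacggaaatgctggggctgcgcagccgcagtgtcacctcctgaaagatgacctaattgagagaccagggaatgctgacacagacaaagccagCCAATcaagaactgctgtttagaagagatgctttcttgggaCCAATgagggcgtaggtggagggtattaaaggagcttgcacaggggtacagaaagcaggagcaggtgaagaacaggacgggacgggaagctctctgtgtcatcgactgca
Cbx7 downstream start: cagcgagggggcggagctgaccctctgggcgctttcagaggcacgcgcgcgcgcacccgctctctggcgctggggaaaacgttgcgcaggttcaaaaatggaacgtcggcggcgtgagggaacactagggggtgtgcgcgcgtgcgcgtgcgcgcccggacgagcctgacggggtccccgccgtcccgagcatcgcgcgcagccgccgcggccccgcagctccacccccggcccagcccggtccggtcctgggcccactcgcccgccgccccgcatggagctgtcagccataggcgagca
Mtf2 start: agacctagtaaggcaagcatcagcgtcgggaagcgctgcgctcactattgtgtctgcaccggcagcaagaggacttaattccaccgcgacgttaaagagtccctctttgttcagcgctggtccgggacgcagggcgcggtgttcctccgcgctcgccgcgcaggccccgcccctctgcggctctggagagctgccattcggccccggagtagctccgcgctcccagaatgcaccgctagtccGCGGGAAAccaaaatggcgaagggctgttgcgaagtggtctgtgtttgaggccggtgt
Suz12 start: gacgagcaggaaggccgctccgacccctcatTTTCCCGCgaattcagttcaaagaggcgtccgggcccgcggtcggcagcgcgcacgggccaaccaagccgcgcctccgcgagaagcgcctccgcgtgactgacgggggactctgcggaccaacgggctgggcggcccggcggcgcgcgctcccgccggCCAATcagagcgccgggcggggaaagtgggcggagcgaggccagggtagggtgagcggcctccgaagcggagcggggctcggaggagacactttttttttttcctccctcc
The upstream Cbx7 window held 8 CpG dinucleotides and 51.0% G and C, with 3 CCAAT words, and the downstream window shown 44 CpG and 74.3% G and C, with no match. That window is the most CpG-rich of 4 annotated starts in its group: the others held 6, 33 and 35 CpG and 1 CCAAT each, and the start 37.2 kb into the gene had 48.0% G and C. The median over 22365 gene starts was 11 CpG and 55.0%. The Mtf2 window (30 CpG) and the Suz12 window (41 CpG) each held TTTCCCGC once, in Mtf2 as its reverse complement, and Suz12 also CCAAT once. TTTCCCGC was in 1.33% of all start windows, and in no annotated start window of the other members. TTTGGCGC was in none of these 4 windows, against 0.68% of all starts, and CCAAT was in 37.9% of all starts. These matches describe the letters only.

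From D0 to iPSCs, H3.3 over 6 of the 10 genes was higher and over 2 lower, whereas among the 15815 genes with a peak in either library 24.6% were higher and 41.6% lower. The median log2 ratio of the members was 1.56, and that of the 11705 genes with a peak in both was -0.53. Higher were Eed, Suz12, Jarid2, Mtf2, Cbx7 and Kdm2b. Lower were Ezh2, at the limit of the 2-fold rule, and Cbx2. Ezh1 and Rnf2 were in neither set. Measured relative to the all-gene median, 7 genes were higher (Rnf2 joined) and 1, Cbx2, was lower, against 31.4% and 33.4% of all genes. The summed score followed covered length, since the score per covered kb was at most 13.7 over the members in iPSCs and lay between 12.9 and 14.5 in D0.

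**Figure D1:**
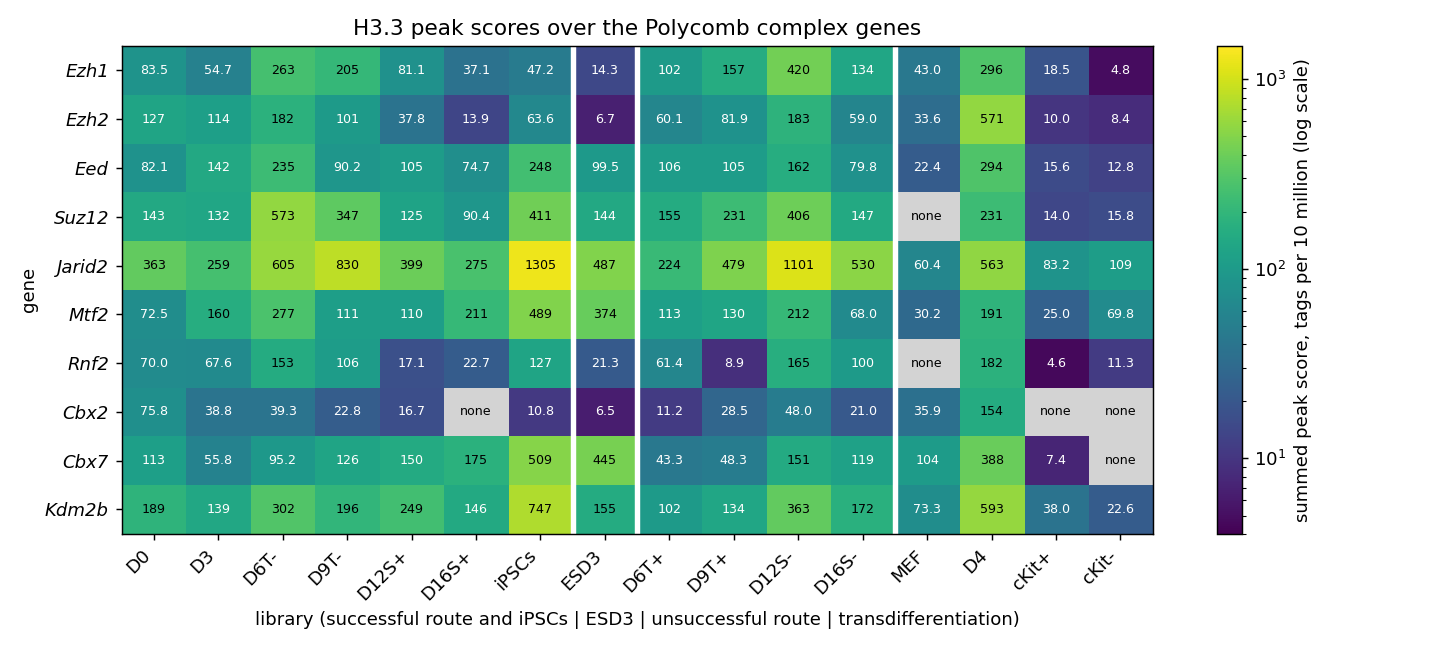
Summed H3.3 peak score (tags per 10 M, log colour scale) of each gene (rows) in each of the 16 H3.3 libraries (columns, in 4 blocks), 1 library per column and grey where no peak was called. The sums depend on gene length, so rows are read across: Mtf2, Cbx7, Jarid2 and Kdm2b were highest in iPSCs among the 12 reprogramming libraries, as was Eed, and Cbx2 was highest in D0.

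This count depends on how strong a peak must be. Peaks had to exceed the input at least 2-fold. With a limit of 4-fold, which 55.1% of the D0 peaks and 22.6% of the iPSCs peaks met, 1 member was higher in iPSCs (Rnf2) and 8 were lower. The share of all genes called at this limit is not given here, so these counts are not read as particular to the members. The median fold over input of all peaks was 4.13 in D0 and 3.25 in iPSCs. With the input subtracted from each score and all peaks kept, 6 members were higher. The share of tags in peaks was 19.1% in D0 and 14.0% in iPSCs, and the part of depth and input in these differences was not tested.

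Of the catalytic subunits Ezh2 was called lower in iPSCs and Ezh1 was not, and relative to the all-gene median neither was called (log2 ratios of -0.47 and -0.29). The call of Ezh2 was also lost by covered kb and with equal numbers of peaks. Over Ezh2, the summed score was 127 (interval 114 to 141) in D0, 63.6 (56.2 to 71.9) in iPSCs and 6.71 (3.88 to 11.4) in ESD3, and the interval of the log2 ratio of iPSCs over D0 was -1.24 to -0.76. ESD3 held a single called peak over Ezh2, 36.8 to 37.3 kb into the gene. In D0 the largest Ezh2 peak, with a score of 61.4, lay at the 3′ end, from 60.8 to 65.7 kb, and no peak was called there in iPSCs. Over Ezh1, the paralogue that predominates in non-dividing cells, the score was 83.5 (72.9 to 95.1) in D0, 47.2 (40.7 to 54.3) in iPSCs and 14.3 (9.74 to 20.4) in ESD3. The log2 ratio of iPSCs over D0 for Ezh1 was -0.82 (-1.11 to -0.54). Of the D0 score of Ezh1, 32.0% came from a peak at its 3′ end that also overlapped the window of Cntnap1.

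The 4 non-catalytic PRC2 genes were higher in iPSCs than in D0. Eed, the WD40 subunit that binds the methyl mark, had 82.1 (71.5 to 93.5) in D0, 248 (233 to 264) in iPSCs and 99.5 (86.6 to 114) in ESD3. Suz12, which holds the complex together, had 143 (129 to 158), 411 (392 to 431) and 144 (129 to 161) in the same order. For both genes iPSCs stood about 3-fold above D0 (3.02-fold for Eed and 2.88-fold for Suz12), and ESD3 lay close to D0. Jarid2 had 363 (341 to 387) in D0, 1305 (1270 to 1340) in iPSCs and 487 (458 to 517) in ESD3, spread over 29, 55 and 35 peaks of its 192 kb body. Mtf2, the Polycomb-like subunit that binds CpG-rich DNA, had the largest ratio of the members: 72.5 (62.9 to 83.6) in D0, 489 (468 to 511) in iPSCs and 374 (348 to 400) in ESD3. Its log2 ratio of iPSCs over D0 was 2.75 (2.54 to 2.97), above 97.1% of the genes with a peak in both. Tmed5 lies next to the 3′ end of Mtf2, and peaks that also overlapped the Tmed5 window gave 13.8% of its score in D0, 18.0% in iPSCs and 35.0% in ESD3.

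Among PRC1 genes the chromodomain subunits parted. Over Cbx2 the score was 75.8 (65.6 to 86.8) in D0, 10.8 (7.77 to 14.4) in iPSCs and 6.48 (3.54 to 10.9) in ESD3, with no peak in D16S+, where 43.3% of all genes had a peak. The log2 ratio of iPSCs over D0 was -2.81 (-3.33 to -2.35), and Cbx2 was the only member called lower under all 7 alternative settings. Over Cbx7 the score was 113 (101 to 127) in D0, 509 (487 to 531) in iPSCs and 445 (417 to 474) in ESD3, a log2 ratio of 2.17 (2.00 to 2.35). Rnf2 had 70.0 (60.5 to 80.8) in D0, 127 (116 to 138) in iPSCs and 21.3 (15.6 to 28.4) in ESD3. The largest Rnf2 peak in D0 (43.8) began beyond the 3′ end, within the 1 kb flank, and without flanks the log2 ratio of Rnf2 went from 0.85 to 2.27. Kdm2b had 189 (172 to 206) in D0, 747 (721 to 774) in iPSCs and 155 (138 to 172) in ESD3. A peak in the window was called for all 10 genes in D0 and in iPSCs, where 61.8% and 61.1% of all genes had one. The members are longer than that background, with a median length of 42.2 kb against 15.4 kb, and a longer window can catch more peaks.

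Between the 2 pluripotent lines, 7 of the 10 genes had at least 2-fold more H3.3 in iPSCs than in ESD3, against 55.2% of 14571 genes, and the median log2 ratio of all genes was 0.93. Measured relative to that median, 3 members were higher (Ezh2, Rnf2 and Kdm2b), against 33.7% of all genes. Mtf2, Cbx2 and Cbx7 were the 3 not called: their log2 ratios of iPSCs over ESD3 were 0.39 (0.27 to 0.51), 0.74 (-0.17 to 1.71) and 0.20 (0.08 to 0.31). Against D0, ESD3 was higher over Mtf2 and Cbx7 and lower over Ezh1, Ezh2, Rnf2 and Cbx2. The background for these 2 higher and 4 lower members was 14.6% higher and 65.7% lower of 15303 genes. Relative to the all-gene median log2 ratio of -1.51, 6 members were higher in ESD3 (Eed, Suz12, Jarid2 and Kdm2b joined) and 3 lower, against 27.4% and 41.5% of all genes. Both comparisons with D0 use the same D0 library.

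**Figure D2:**
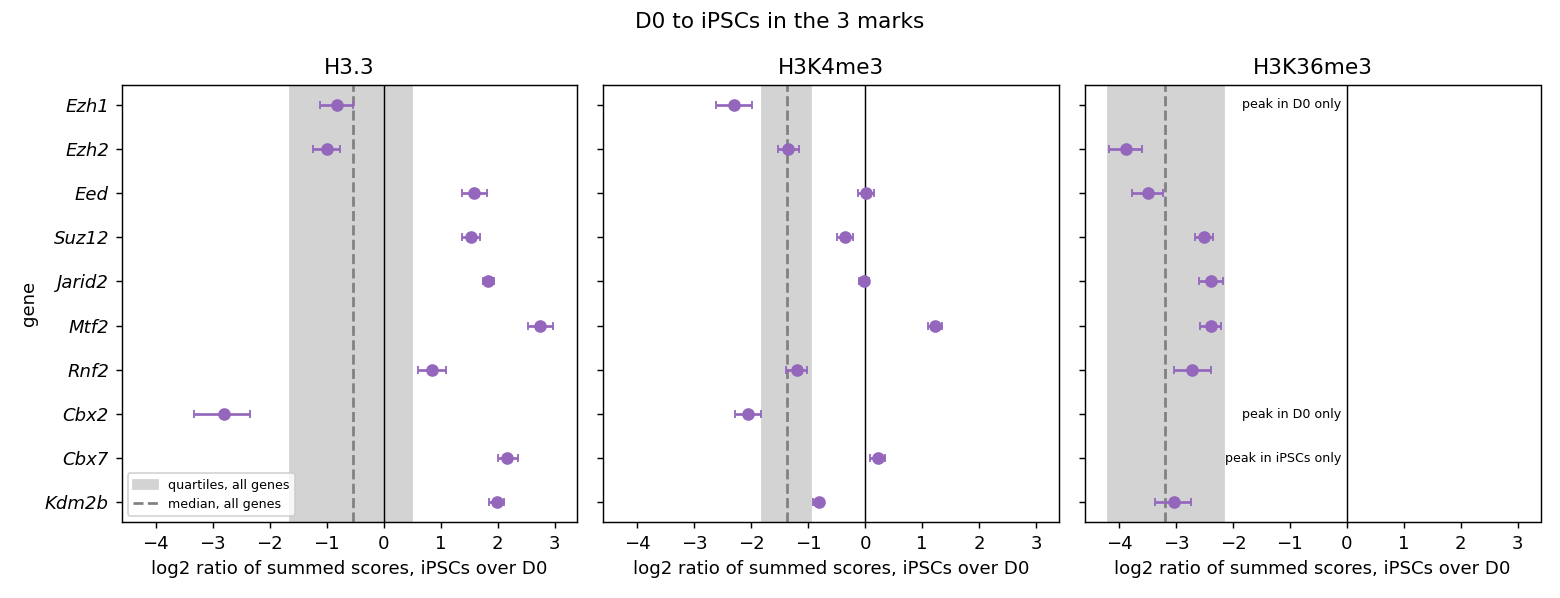
Log2 ratio of the summed score, iPSCs over D0, for each gene in H3.3, H3K4me3 and H3K36me3, with exact 95% counting intervals. The grey band and dashed line give the quartiles and median of all genes with a peak in both libraries; the H3.3 points of 7 genes lie to the right of the band, and in H3K36me3 the 7 points drawn lie within it, with the 3 genes that had a peak in only 1 library named in words.

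The intermediate libraries did not lie on a line between D0 and iPSCs. On the successful route D6T- had the highest Suz12 score of the 12 reprogramming libraries (573), and the median score of all bound genes was 65.8 in D0 and 78.1 in D6T-. D16S+ then had the lowest score of the 12 over Eed (74.7) and Suz12 (90.4), and no peak over Cbx2. The share of tags in peaks was 19.3% in D6T- and 4.88% in D16S+. Cbx7 took another path: after 113 in D0, its score on days 3, 6, 9, 12 and 16 of this route was 55.8, 95.2, 126, 150 and 175. From day 3 on each was above the one before, while the median score of all bound genes on these days was 44.7, 78.1, 55.8, 28.9 and 21.3. Mtf2 had 110 in D12S+ and 211 in D16S+, the only other member higher in D16S+ than in D12S+ apart from Rnf2 (17.1 and 22.7). On the unsuccessful route, D12S- had the highest score of the 12 libraries over Ezh1 (420), Ezh2 (183) and Rnf2 (165), and its share of tags in peaks, 22.0%, was the highest as well.

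**Figure D3:**
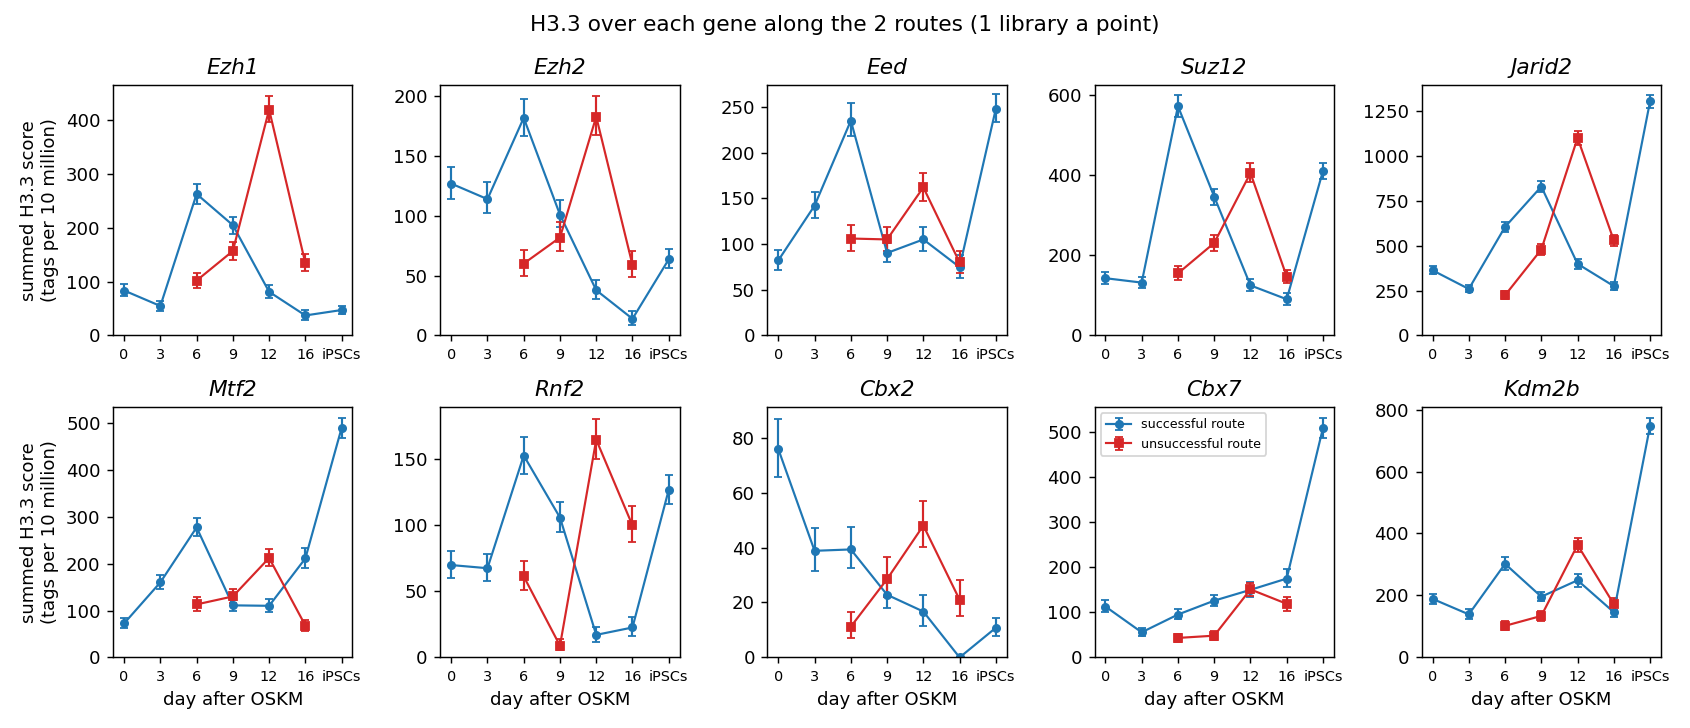
Summed H3.3 score (tags per 10 M) over each gene by day after OSKM, with 1 library a point and exact 95% counting intervals as bars; blue circles are the successful route ending in iPSCs and red squares the unsuccessful route. Between days 0 and 16 the blue line is highest at day 6 for 7 genes and the red line at day 12 for all 10, whereas Cbx7 climbs along the blue line from day 3; the Cbx2 point at 0 is a library with no peak.

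The sorted fractions were compared day by day, and the all-gene median log2 ratio of the successful over the unsuccessful fraction was itself 0.91, 0.31, -1.74 and -1.44 at days 6, 9, 12 and 16. At day 6 all 10 genes were at least 2-fold higher in D6T- than in D6T+, against 52.6% of 14239 genes, but none was relative to the all-gene median, against 30.6% of all genes. All 10 members had a peak in both libraries, against 11198 of the 14239 genes. At day 9, 2 genes were higher in D9T-, against 28.4% of all genes: Rnf2 (106 against 8.91) and Cbx7 (126 against 48.3). Of the Rnf2 score in D9T-, 50.6% fell on bases outside its window, and the D9T+ score came from 1 peak with 20 tags. At day 12, 6 genes were lower in D12S+ than in D12S-, against 80.7% of 14625 genes, namely Ezh1, Ezh2, Suz12, Jarid2, Rnf2 and Cbx2. Relative to the all-gene median 3 members were higher at day 12 and 1 lower, against 14.2% and 37.1% of all genes. Cbx7 had 150 in D12S+ and 151 in D12S- (interval of the log2 ratio -0.21 to 0.21). At day 16, 4 genes were lower in D16S+ (Ezh1, Ezh2, Rnf2 and Cbx2), against 69.6% of 13634 genes, and 1 was higher, Mtf2, with 211 against 68.0, against 9.75% of all genes. Relative to the all-gene median at day 16, 4 members were higher and 1 lower (Cbx2, with a peak in D16S- only), against 21.5% and 43.0% of all genes. Of the 13634 genes, 8741 had a peak in both libraries, and the others were called by presence alone. Of the 40 pairs of gene and day, 13 were higher in the successful fraction, 10 of them at day 6, and 10 were lower, 6 of them at day 12.

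Both systems started from MEFs, yet over 8 of the 10 genes D0 had at least 2-fold more H3.3 than MEF, against 66.8% of 14624 genes. Suz12 and Rnf2 had no peak in MEF, where 53.2% of all genes had one. Cbx7 had 113 in D0 and 104 in MEF, a log2 ratio of 0.12 (-0.09 to 0.33). Relative to the all-gene median log2 ratio of 1.38, 3 members were called higher in D0 and 1, Cbx7, lower, against 34.2% and 18.9% of all genes. Of the 3, only Jarid2 was higher by its ratio, and Suz12 and Rnf2 were called because MEF had no peak. After 4 days of SLBR all 10 genes were higher in D4 than in MEF, against 95.2% of all genes: Ezh2 had 33.6 in MEF and 571 in D4, and Jarid2 60.4 and 563. All 10 were lower in cKit+ cells than in D4, against 98.5% of all genes. These counts are close to what nearly all genes did, and the share of tags in peaks was 7.64% in MEF, 37.2% in D4 and 1.65% in cKit+. Relative to the all-gene median, 4 members were called higher in D4, against 41.6% of all genes: Ezh2 and Eed by ratio, and Suz12 and Rnf2 because MEF had no peak. In cKit+ 2 were higher and 3 lower, among them Cbx2 with no peak in cKit+, against 11.7% and 64.7% of 16245 genes. Only 7318 of these genes had a peak in both D4 and cKit+, against 9 of the 10 members. The others were called by presence alone, so the 2 shares are not alike. Between the sorted products, Cbx2 had no peak in either and Cbx7 1 peak in cKit+ (7.36) and none in cKit-, in libraries where 33.2% (cKit+) and 31.8% (cKit-) of all genes had a peak. Of the 9 genes with a peak in either, 2 were higher in cKit+ (Ezh1, with 18.5 against 4.85, and Cbx7) and 2 lower (Mtf2, with 69.8 in cKit- and a log2 ratio of cKit+ over cKit- of -1.48, and Rnf2), against 30.3% higher and 36.6% lower of 9383 genes.

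In H3K4me3 the members that stood out were Cbx7 and Mtf2. A peak lay within 1 kb of the annotated gene start of 9 members in D0 and of all 10 in iPSCs, where 64.0% and 62.2% of all gene starts had one, and the member without one in D0 was Cbx7. For Kdm2b the peak counted (178 in D0 and 64.3 in iPSCs) was one shared with the window of the neighbouring gene Orai1. At its upstream start Cbx7 had no H3K4me3 peak in D0, D3, D6T- or D9T-, a score of 11.8 in D12S+, 32.6 in D16S+ and 84.5 over 2.48 kb in iPSCs. At the downstream start group, 37.2 to 38.6 kb into the gene, a peak was present in every library, with a score of 166 in D0, 57.2 in D16S+ and 151 in iPSCs. The upstream start also had an H3.3 peak in iPSCs (16.3) and in ESD3 (14.6) and in none of the other 14 H3.3 libraries. This pattern was singled out after its values were seen: H3K4me3 at the gene start in D12S+, D16S+ and iPSCs and in none of the 4 earlier libraries was found at 28 of 22380 genes (0.125%), among them Usp7 of the wider Polycomb list and the pluripotency-associated genes Tet1 and Dppa2. These names were picked from the list, which also held genes such as Olfr222, Src and Plce1. H3.3 at the gene start in iPSCs and ESD3 alone was found at 81 genes (0.362%), and both patterns together at 3: Cbx7, Ash2l and Gm7221. Along the body, Cbx7 had 5 H3.3 peaks covering 7.98 kb in D0, at the downstream start and from 16.8 to 21.8 kb, and 14 peaks covering 41.0 kb in iPSCs. No H3K36me3 peak was called over Cbx7 in D0, D3 or D12S+; 1 peak was called in each of the other 4 libraries, the strongest in iPSCs (interval 26.1 to 41.0) and the weakest in D6T- (3.60 to 10.2).

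**Figure D4:**
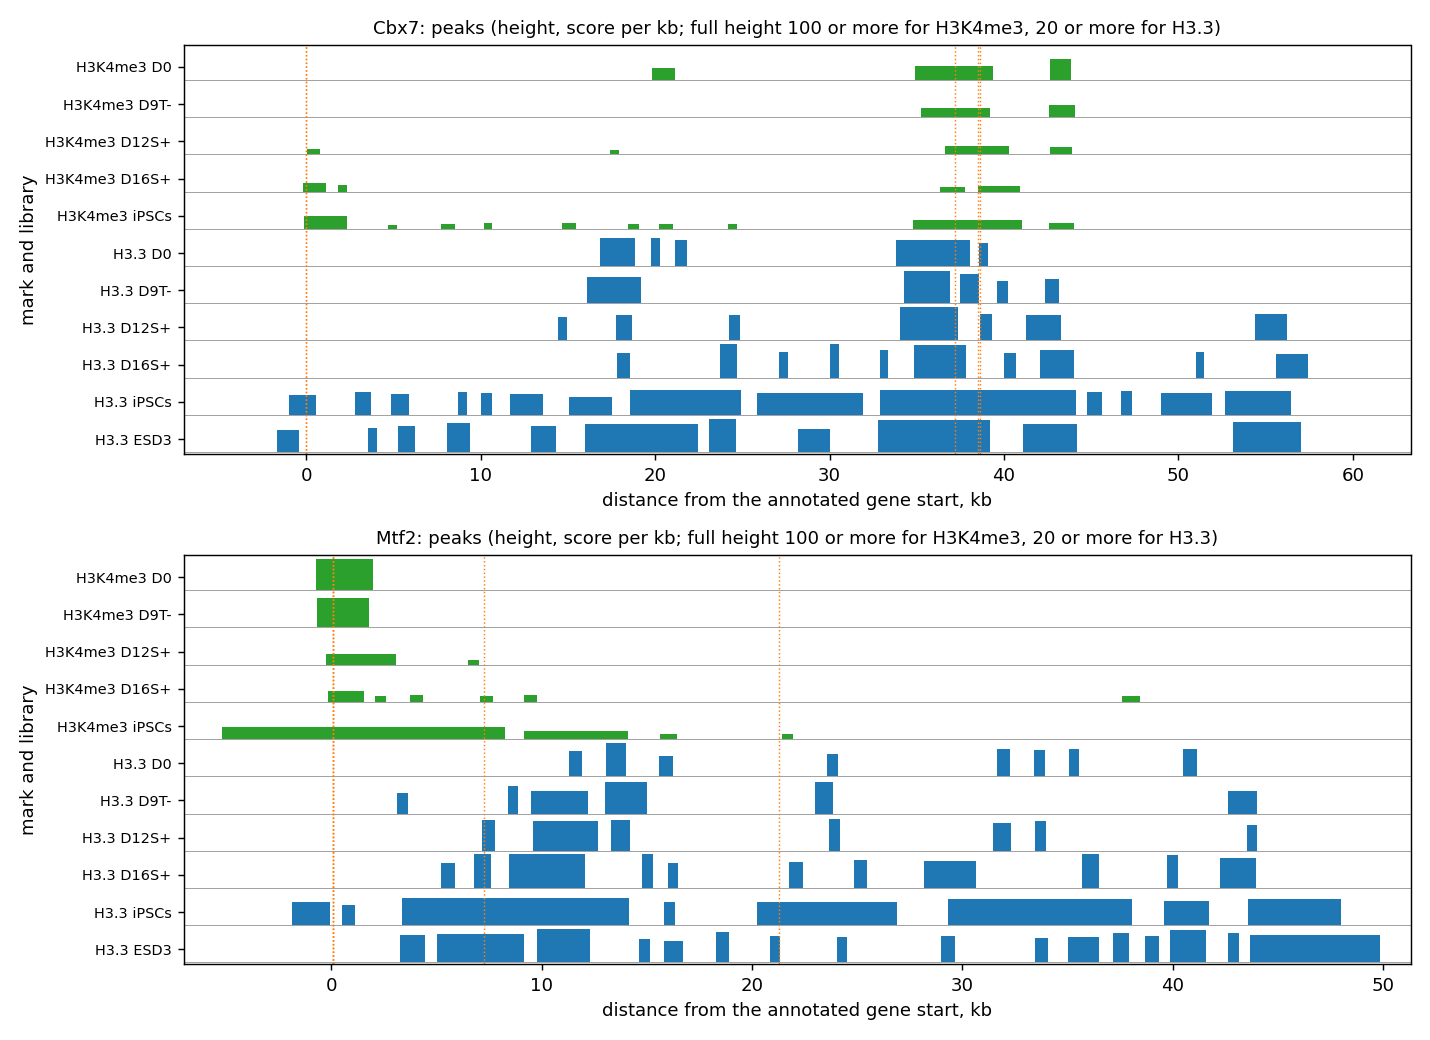
Called peaks over Cbx7 (top) and Mtf2 (bottom) by distance from the annotated gene start in kb, with H3K4me3 in green and H3.3 in blue; each row is 1 library, bar height is score per kb and dotted lines are annotated transcript starts. At Cbx7 a green peak at 0 kb is present from D12S+ on and absent from the D0 and D9T- rows shown, and at Mtf2 the green peak at the start reaches 13.4 kb in iPSCs.

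Mtf2 had the other distinct H3K4me3 peak. In D0 its start carried a peak of 2.75 kb with a score of 234, and in iPSCs a peak of 13.4 kb, from 5.21 kb before to 8.24 kb after the gene start, with a score of 421. By the longest H3K4me3 peak of each gene, Mtf2 ranked 7632 of 15709 genes in D0 and 11 of 15440 in iPSCs. D12S+ (3.33 kb) and D16S+ (1.70 kb) had no such breadth, though D16S+ had 6 separate peaks. Over the Mtf2 window D0 had a summed score of 234 (217 to 252) and iPSCs 547 (523 to 572), a log2 ratio of 1.22 (1.10 to 1.35), and Mtf2 was the 1 member higher in H3K4me3, against 5.55% of 16379 genes. Because 24.1% of the iPSCs score fell on bases outside the window, the ratio with scores weighted by the length inside was 0.83, below the 2-fold rule. The fold over input of the broad peak was 6.84, against 19.8 for the D0 peak, and with peaks at least 8-fold over input Mtf2 was lower in iPSCs.

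Ezh1, Ezh2, Rnf2 and Cbx2 were lower in H3K4me3 in iPSCs, 4 members against 71.2% of all genes, and the all-gene median log2 ratio was -1.38. Relative to that median 5 members were higher (Eed, Suz12, Jarid2, Mtf2 and Cbx7), against 12.7% of all genes, and none was lower, against 14.2%. Ezh1 had 141 (128 to 156) in D0 and 28.7 (23.5 to 35.0) in iPSCs, and Ezh2 268 (250 to 288) and 105 (95.0 to 117). Over Cbx2, a peak of 6.24 kb in D0 was 2.09 kb in iPSCs, and its score 255 (237 to 274) and 61.3 (53.4 to 70.0). Eed was level in score, at 291 in D0 and 294 in iPSCs, but its longest peak was 3.49 kb in D0 and 7.96 kb in iPSCs. The longest Suz12 peak was 3.62 kb in D0 and 5.11 kb in iPSCs, at a score of 306 and 240 (log2 ratio -0.36, -0.49 to -0.22). Jarid2 had 3 H3K4me3 peaks over 7.87 kb in D0, 10 over 20.3 kb in D9T- and 22 in iPSCs, at scores of 597, 905 and 589. In iPSCs the longest peak of Jarid2, Eed and Cbx7 (7.71, 7.96 and 6.23 kb) was longer than that of 98.7%, 98.9% and 96.9% of the genes with a peak.

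**Figure D5:**
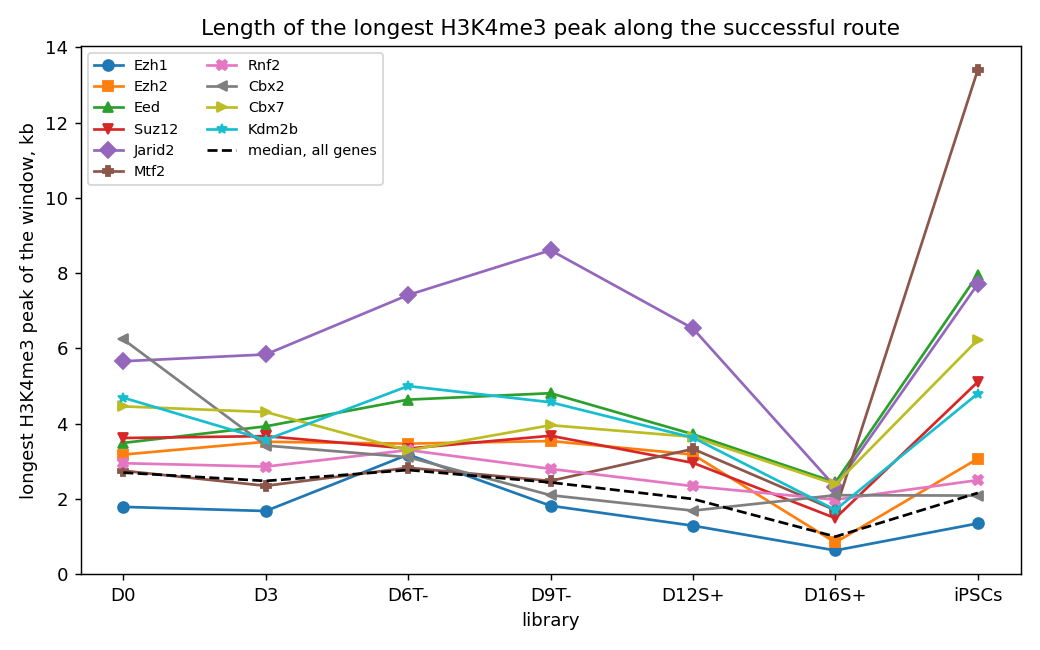
Length in kb of the longest H3K4me3 peak in the window of each gene in the 7 libraries of the successful route and iPSCs, 1 library a point, with the median of all genes with a peak as a dashed line. Mtf2 lies near the median up to D9T- and reaches 13.4 kb in iPSCs, Cbx2 goes from 6.24 kb in D0 to the median, and no member exceeds 2.44 kb in D16S+, the library with the fewest tags.

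Kdm2b has several annotated starts, among them the start of the long form, which carries the demethylase domain, and that of a short form without it. H3K4me3 covered the starts 25.3, 62.6 and 115 kb into the gene in all 7 libraries, with scores of 358, 131 and 202 in D0 and 134, 58.1 and 93.4 in iPSCs. The starts 2.21 and 126 kb into the gene had no H3K4me3 peak in any of the 7. Orai1 lies next to the annotated gene start, and the peak shared with the Orai1 window gave 19.4% of the Kdm2b score in D0 and 12.4% in iPSCs.

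H3K36me3 was lower in iPSCs than in D0 over 9 of the 10 genes, against 88.9% of 11804 genes, with an all-gene median log2 ratio of -3.19. The share of tags in peaks was 31.3% in D0 and 2.88% in iPSCs. A peak was called over 9 members in D0, where 49.7% of all genes had one, and over 8 in iPSCs, where 34.7% did. Ezh1 had 262 in D0 and no peak in iPSCs, and Cbx2 had 34.6 in D0 and none in iPSCs. Suz12 had 911 (873 to 949) in D0 and 160 (144 to 177) in iPSCs, a log2 ratio of -2.51 (-2.67 to -2.35) that was 0.68 above the all-gene median. Ezh2, at -3.88 (-4.18 to -3.60), was 0.70 below it, and 52.5% of its D0 score came from bases outside its window, where a peak ran past the 3′ end. No member had an H3K36me3 peak within 1 kb of its gene start in any of the 7 libraries, where 0.375% to 3.22% of all genes had one.

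The wider set of 35 Polycomb genes, which adds further PRC2 subunits, alternative PRC1 subunits, PR-DUB and the H3K27 demethylases, gave other counts in H3.3. From D0 to iPSCs 6 of the 33 with a peak were higher and 13 lower, 18.2% and 39.4% beside the 24.6% and 41.6% of all genes, and their median log2 ratio was -0.30. Among those with a peak in both libraries, the 3 highest were Phc1, a PRC1 polyhomeotic subunit (59.9 in D0 and 258 in iPSCs), Pcgf6, of a germline-gene-silencing variant PRC1 (39.3 and 144), and Usp7, a deubiquitinase (368 and 1133). The 3 lowest were Pcgf3, a RING finger subunit of variant PRC1 (138 and 11.3), Bcor, a corepressor in variant PRC1 (58.8 and 5.59), and Asxl3, of the deubiquitinase complex PR-DUB (85.0 and 14.6). Outside that ranking, E2f6 (122), Bcorl1 (29.3) and Cbx8 (14.1) had a peak in D0 and none in iPSCs, and Rbbp7 (25.8) in iPSCs and none in D0. In H3K4me3 none of the 35 was higher and 24 were lower, beside 5.55% and 71.2% of all genes, and in H3K36me3 2 of the 33 with a peak were higher and 30 lower, beside 6.64% and 88.9%. From MEF to D4, all 34 genes of the wider list with a peak in either library were higher, beside 95.2% of all genes. Bmi1, itself 1 of the SLBR factors, had 6.10 in MEF and 107 in D4. Within sequence that the delivered copy of Bmi1 has in common with the gene, reads from the 2 sources could not be told apart here. The part of the sum on such sequence was not measured.

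Over the 12 reprogramming libraries the genes whose H3.3 was most like that of Ezh1, by Pearson's correlation of log2(score + 1) minus each library's median over the 6250 genes bound in all 12, were Tmem210 (0.95), Ube4a (0.94) and Plekhh3 (0.94), out of 9936 genes bound in at least 10 of them. For Ezh2 they were 1110054O05Rik (0.96), Fam117b (0.96) and Ap1b1 (0.95). Genes overlapping Ezh1 or Ezh2 were left out of the search for that member, but other genes near them were not. Between Ezh1 and Ezh2 the correlation was 0.46, between Ezh2 and Cbx2 0.47, between Ezh2 and Mtf2 -0.67, and between Ezh2 and Cbx7 -0.79. These values are descriptions over 12 libraries that differ in depth and enrichment.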

How the data were processed

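H3.3, H3K4me3 and H3K36me3 ChIP-Seq gave 30 deposited peak lists from 46 samples; the other 16 samples are inputs, which enter through the authors' columns. Per the file headers and the study's methods, the authors mapped reads with STAR to mm9, dropped reads with several matches and called peaks per library with HOMER (findPeaks, histone style) against input; versions are not given in the sources used here. The deposited score is a signal, tags in the peak scaled to 10 M, and the deposited ratio is the fold over input, at least 2 for H3.3 and 4 for the marks. No peak on the reference chromosomes ran past their ends in the mm9 genome used (0 of 1500134).

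Peaks overlapping a gene or 1 kb to either side counted in full, so wide peaks and neighbouring genes add to a sum. Tags were recovered from score and depth and rounded; the intervals are exact (Poisson, or binomial for ratios) and cover counting error only, with 1 library per group and no test. Transcript starts within 3 kb of the one before formed 1 start site. Computation used Python 3.11.15, numpy 2.4.6 and scipy 1.17.1, and the sums were tested on simulated data. Text names all members, the 3 highest and 3 lowest of the wider list, and the 3 genes most like Ezh1 and Ezh2; genes sharing the Cbx7 pattern and the windows printed were picked after values were seen. Members and lists were chosen with earlier results of these data known. Alternatives were equal numbers of peaks, a stricter fold, no flanks, scores weighted by overlap, input subtraction, covered kb, and centring on the all-gene median.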

Additional observations from a re-analysis of the deposited data

Results flagged for a closer look

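Rnf2 at day 12 stood out because its H3.3 differed from D0 in opposite directions in the 2 fractions, each by at least 2-fold. The log2 ratio over D0 was -2.03 in D12S+ (17.1 against 70.0) and 1.24 in D12S- (165 against 70.0). Each fraction is 1 library and both share D0, so the difference was not tested. Of the Rnf2 score, 48.7% in D0, 42.8% in D12S- and 0% in D12S+ fell on bases outside its window. Over all genes the median log2 ratio of D12S+ over D12S- was -1.74, and 80.7% were lower in D12S+. The share of tags in peaks was 6.93% in D12S+ and 22.0% in D12S-, and its part in this result was not tested.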

How the results depend on the processing

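The most consequential choice was the fold over input that a peak must reach. With at least 4-fold (H3.3) or 8-fold (H3K4me3 and H3K36me3), 1 member was higher and 8 lower in H3.3 from D0 to iPSCs, 2 were higher in iPSCs than in ESD3, 8 of the 40 gene-day pairs were higher and 16 lower in the successful fraction, 0 were higher and 8 lower in H3K4me3, and 3 were lower in H3K36me3; in the wider list 1 was higher and 30 lower. The H3.3 log2 ratio of iPSCs over D0 turned to -1.62 for Jarid2, -1.28 for Mtf2, -3.76 for Cbx7 and -0.23 for Kdm2b, and 22.6% of iPSCs peaks against 55.1% of D0 peaks met the limit. Shares of all genes at the stricter limits are not given here, so the counts at them are not read as particular to the members or the wider list.

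Relative to the all-gene median, 1 member was lower in H3.3 from D0 to iPSCs, 3 were higher in iPSCs than in ESD3, and 3 were higher in D0 than in MEF. In the sorted fractions 2 pairs were lower in the successful fraction. In transdifferentiation 4 members were higher in D4 and 3 lower in cKit+. In H3K4me3 5 were higher and 0 lower. In H3K36me3 2 were lower (Ezh1 and Cbx2, with a peak in D0 only), against 49.3% of 11804 genes. Of the wider list 11 of 33 were higher in H3.3 from D0 to iPSCs, 33.3% beside 31.4% of all genes. Counts of single comparisons also moved: higher in ESD3 than D0 from 2 to 6, at day 12 from 6 to 1 lower and 0 to 3 higher, at day 16 from 4 to 1 lower and 1 to 4 higher, and higher in cKit+ than D4 from 0 to 2. The H3K4me3 log2 ratio was then 0.04 for Ezh2 and 0.18 for Rnf2, and the H3K36me3 ratio 0.68 for Suz12, 0.81 for Jarid2, 0.79 for Mtf2, 0.48 for Rnf2 and 0.15 for Kdm2b.

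By covered kb, 1 member was lower in H3.3, 5 were higher and 2 lower in H3K4me3, and Rnf2 turned to 0.17. With equal numbers of peaks 1 was lower in H3.3, and with weighted scores 0 were higher in H3K4me3. Shares of all genes are not given for these settings either. The causes were not tested beyond what each setting changes. The stricter fold was not run for transdifferentiation or for D0 and MEF. No paired analysis was possible because each group holds 1 library.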
